A study of Mus musculus with 8 samples.

Results

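The genes described here are 10 genes for milk and secretory proteins of the mammary gland, taken by symbol from the 31894 genes of a count table: the caseins Csn1s1, Csn2, Csn1s2a and Csn3, the whey proteins Wap and Lalba, the iron-handling proteins Ltf and Lcn2, and Wfdc2 and Mfge8. They were measured in E-cadHI and E-cadLO tumor cells that were sorted by FACS from the breast cancer brain metastases (BCBM) of 4 mice, numbered 57, 58, 67 and 70, with 1 mRNA library of each population per mouse. The tumors grew from organoids of the PyMT E-cad-mCFP line, mammary carcinoma cells of the polyoma middle T model that carry E-cadherin fused to a cyan fluorescent protein, which were established by repeated transplantation in the brain and injected intracranially. E-cadHI cells had high E-cad-mCFP signal and E-cadLO cells had lost it, and all 8 libraries carry the same labels for strain (FVB), genotype (wild type) and tissue (brain metastasis tumor), without an age or an added treatment. All tumors trace back to this line, so the 4 mice are replicates of the host and the tumor it grew. The purity check by flow cytometry used only cells with the fluorescent protein, and the paper also reports imaging of both sorted populations. The question of the comparison was how the mammary secretory genes differ between tumor cells with high and with lost E-cad-mCFP signal from the same tumor.

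Milk proteins are made by luminal cells of the mammary gland that have entered the alveolar, secretory state. Prolactin, through its receptor and the transcription factor STAT5, together with glucocorticoids and factors such as ELF5, switches on the casein and whey genes in pregnancy and lactation. Caseins carry calcium and phosphate in micelles, alpha-lactalbumin makes lactose synthesis possible, and lactoferrin and lipocalin 2 keep iron away from bacteria. These last 2 are also stored in the granules of neutrophils, so a bulk library can receive them from either cell type.

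The 8 libraries held 9102781 to 15769200 counts, and the floor of 3 counts corresponded to 0.202 to 0.349 CPM (counts scaled to a common library size). Epithelial genes were high in every library. The summed level of 12 epithelial markers was 8236 to 11163 normalized CPM in E-cadHI and 6013 to 14925 in E-cadLO libraries. The mRNA of E-cadherin itself, Cdh1, was 93.5 to 132 normalized CPM in E-cadHI and 59.2 to 181 in E-cadLO libraries, so the groups overlapped, and in mouse 58 it was higher in the library labelled E-cadLO (181) than in that labelled E-cadHI (132). RNA of brain and immune cells was present in both populations: the summed markers of microglia and macrophages were 32.5 to 336 normalized CPM in E-cadHI and 169 to 1105 in E-cadLO, those of oligodendrocytes 554 to 8566 and 1312 to 34324, those of astrocytes 1146 to 3612 and 723 to 10081, those of neurons 4.39 to 64.1 and 21.9 to 246, and those of endothelium 41.4 to 76 and 56.5 to 102. Fibroblast markers summed to 7.8 to 23.3 in E-cadHI libraries and to 25.8 to 47.8 in the E-cadLO libraries of mice 58, 67 and 70, against 1659 in that of mouse 57. Within each mouse the microglial, oligodendrocyte, neuronal, endothelial and fibroblast sums were higher in E-cadLO than in E-cadHI. In each E-cadHI library most of the astrocyte sum came from Aldoc (689 to 2233 normalized CPM) and most of the endothelial sum from Flt1 (39 to 71.7). Aldoc fell from 1005 to 124 in mouse 57, where the median log2 ratio of the 9 astrocyte markers was 1.31. Gfap stood at 2.09 to 339 in E-cadHI and 8.99 to 1333 in E-cadLO libraries. In such bulk samples, fewer cells of a type and less RNA per cell cannot be told apart, and the part of these other cells in the values below was not tested.

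Summed together, the 10 genes took a larger share of the E-cadHI libraries. They made up 4.46%, 3.04%, 4.2% and 3.93% of all counts in the E-cadHI libraries of mice 57, 58, 67 and 70, and 0.791%, 2.68%, 2.36% and 1.83% in their E-cadLO libraries. The lowest E-cadHI share was above the highest E-cadLO share, and mouse 57 held both the highest and the lowest value. Csn3 and Ltf held the largest parts of this sum in every library. Single genes went the other way in some mice: Mfge8 took a larger share of the E-cadLO library in mice 57 and 58. So did Lcn2 in mouse 58 and Wfdc2 in mice 57, 58 and 67. The caseins alone made up 1.41% to 2.23% of the E-cadHI and 0.364% to 1.4% of the E-cadLO libraries. Per kilobase of the longest annotated coding transcript, the E-cadHI means in normalized CPM were 8356 ± 2066 for Csn3 (SD, n = 4), 5910 ± 1001 for Ltf, 2882 ± 333 for Lcn2, 2570 ± 1295 for Csn2, 2358 ± 290 for Csn1s1, 582 ± 180 for Lalba, 194 ± 20.3 for Mfge8, 103 ± 98 for Csn1s2a, 68.8 ± 16.7 for Wap and 3.71 ± 1.84 for Wfdc2. In this order the ranges of mean ± SD overlapped for Csn3 and Ltf, for Lcn2, Csn2 and Csn1s1, and for Mfge8, Csn1s2a and Wap as neighbours, while those of Lalba and Wfdc2 did not overlap with the genes next to them. Among all genes with an annotated length, Csn3 ranked 2 to 7 and Ltf 3 to 8 per kilobase in the E-cadHI libraries, and 5 to 13 and 7 to 18 in the E-cadLO libraries. The order in E-cadLO cells was the same except that Csn1s1 (1403 ± 533) stood before Csn2 (1196 ± 694), and these differed by less than their SD.

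**Figure D1:**
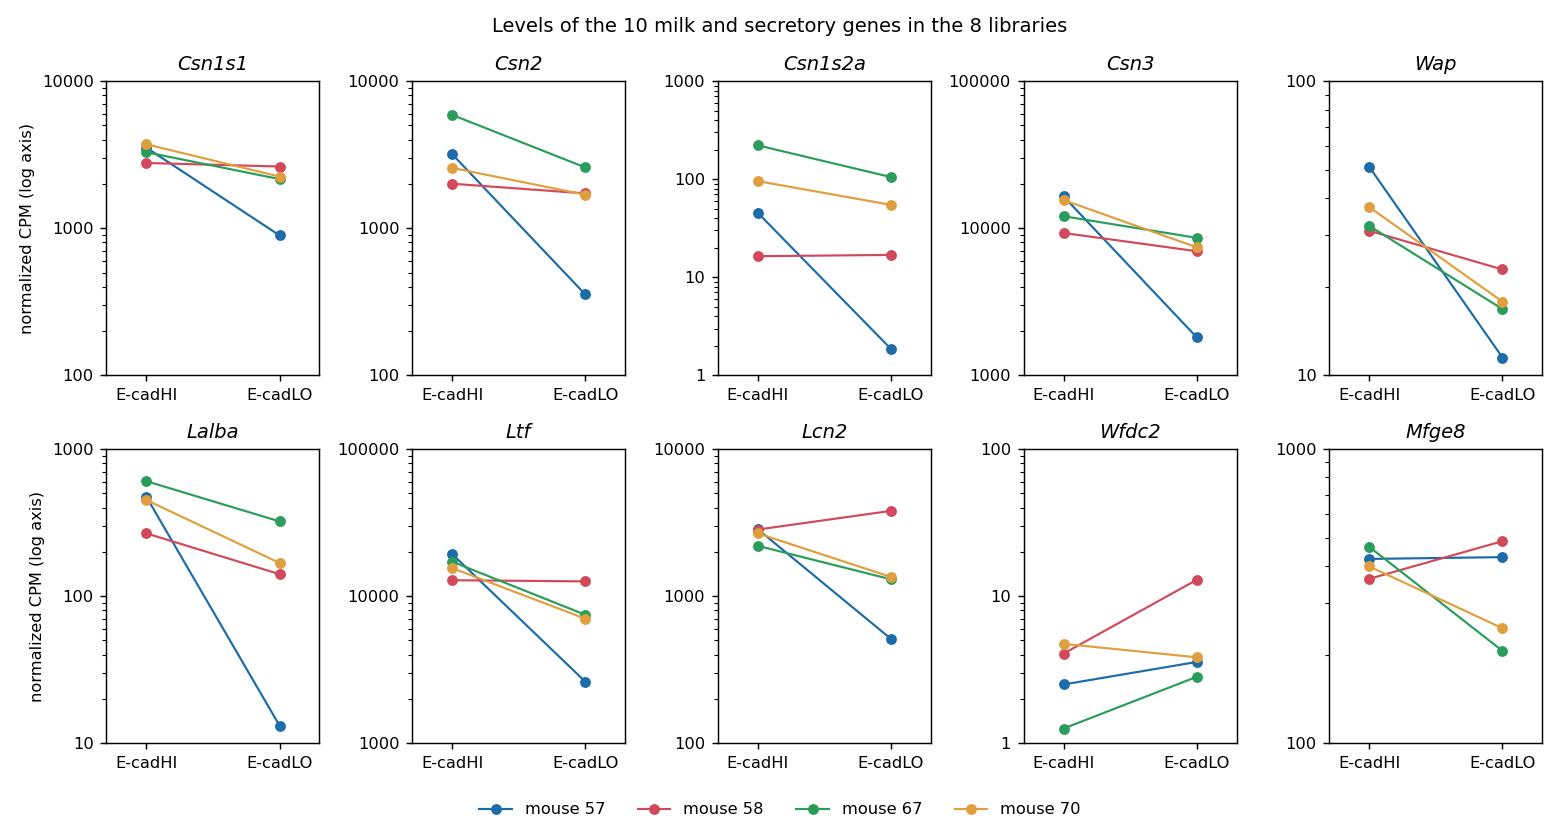
Normalized CPM (log axis, with its own range in each panel) of the 10 genes in the E-cadHI and E-cadLO library of each mouse, with a line joining the libraries of a mouse. Csn1s1, Csn3, Wap and Ltf do not overlap between the groups, mouse 57 has the steepest downward line for all genes except Wfdc2 and Mfge8, and Wfdc2 is highest in the E-cadLO library of mouse 58.

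In the comparison over all 8 libraries without a term for the mouse, 9 of the 10 genes had a fitted level below that of E-cadHI cells, and none passed an adjusted p of 0.05 (quasi-likelihood test of edgeR with adjustment over 13598 genes after Benjamini and Hochberg). No gene of the table passed in this fit (0% called), and at an unadjusted p under 0.05, 790 genes were lower (5.81%) and 1109 were higher (8.16%) in E-cadLO cells. The 4 genes of the 10 below an unadjusted p of 0.05 were Csn1s1, Csn3, Wap and Ltf, all lower. The median log2 fold change of the 10 genes was -1.09, beside 0.06 over all genes tested, of which 44.9% were fitted lower. Within the mice, 6 of the 10 genes (Csn1s1, Csn2, Csn3, Wap, Lalba and Ltf) were lower in E-cadLO cells in 4 of 4 mice, beside 14.2% of all genes tested. For 4 of the 10 (Csn1s1, Csn3, Wap and Ltf) every E-cadLO library lay below every E-cadHI library, beside 4.2% of all genes tested, and for none of the 10 was the reverse true, beside 3.9% of all genes. With 4 pairs the exact two-sided sign-flip permutation test cannot go below p = 0.13, which is the value each of the 6 genes had.

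DESeq2, the tool named in the study's methods, called Wap lower without a term for the mouse (adjusted p = 0.0104), where 2.64% of all genes were called, 0.449% lower and 2.19% higher. The libraries of a mouse come from the same animal. With the mouse as a replicate block DESeq2 called Csn3 (adjusted p = 0.0261), Wap (0.0096) and Ltf (0.0104) lower, where 1.65% of all genes were called lower and 7.57% higher. Csn1s1 lay just outside, at an adjusted p of 0.0504. With the same block edgeR called 99 genes higher (0.728%) and 0 lower, although 997 genes had an unadjusted p under 0.05 and a lower level, among them 6 of the 10. So the lower level of Wap passed in DESeq2 without and with the block, and that of Csn3 and Ltf only in DESeq2 with it. None of these passed in either fit of edgeR. These calls also moved with the mice included: with the block, DESeq2 called 5 of the 10 lower without mouse 57 (Csn2, Csn3, Wap, Lalba and Ltf), beside 0.834% of all genes, and 6 without mouse 58 (Csn1s1, Csn2, Csn3, Wap, Ltf and Lcn2), beside 2.06%. It called only Csn3 without mouse 67, beside 0.212%, and only Ltf without mouse 70, beside 0.773%.

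**Figure D2:**
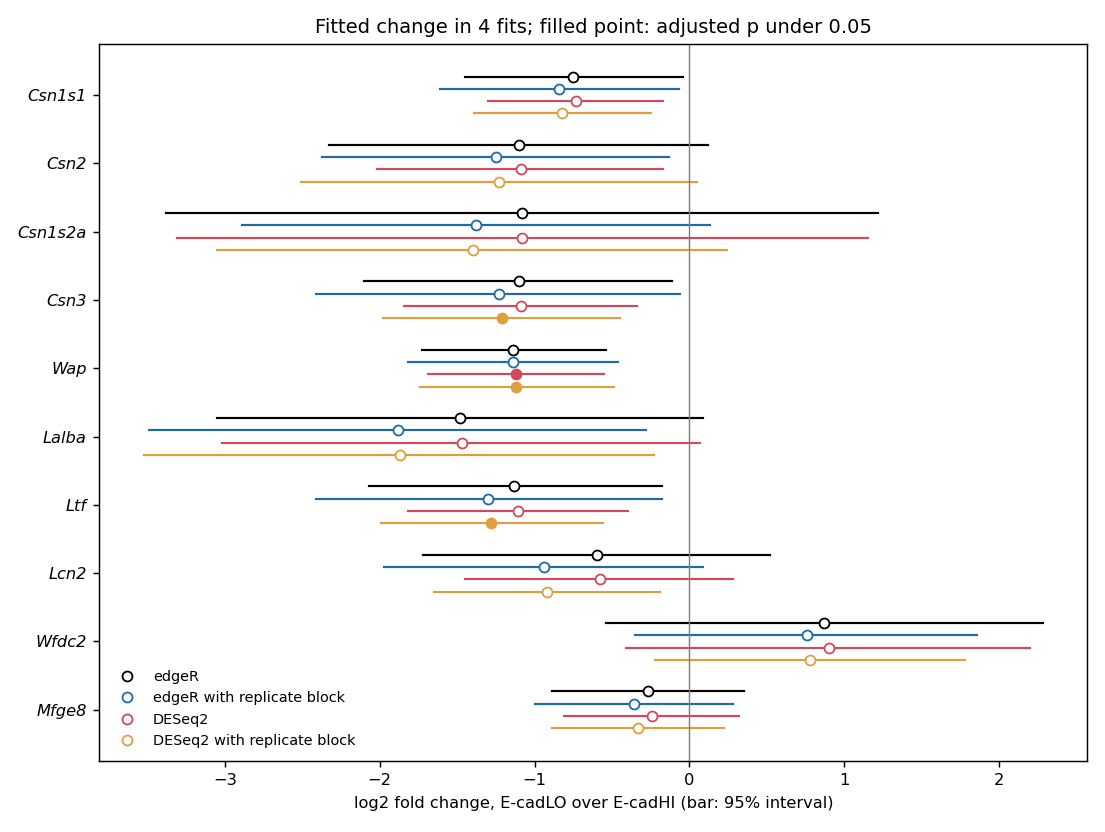
Log2 fold change of each gene, E-cadLO over E-cadHI, with its 95% interval, in 4 fits over the 8 libraries, by edgeR and DESeq2, each without and with the replicate block. Filled points have an adjusted p under 0.05: Wap in both fits of DESeq2, and Csn3 and Ltf in DESeq2 with the block.

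Csn3 encodes kappa-casein, which coats and stabilizes the casein micelle (chromosome 5, 87925579 to 87932665, plus strand, GRCm38). It was the most abundant casein in every library, with 56.2% to 70.9% of the casein counts. In the E-cadHI libraries of mice 57, 58, 67 and 70 its level was 16458, 9284, 12067 and 15538 normalized CPM, and in the E-cadLO libraries 1814, 6977, 8602 and 7418. All E-cadLO libraries were below all E-cadHI libraries, and the E-cadLO library of mouse 57 lay far below the others. The mean was 13337 ± 3298 normalized CPM in E-cadHI and 6203 ± 3005 in E-cadLO cells (SD, n = 4 each). The fitted log2 fold change was -1.10 ± 0.44 (SE, adjusted p = 0.328, edgeR). In DESeq2 it was -1.21 ± 0.39 with the replicate block (adjusted p = 0.0261) and -1.09 ± 0.38 without it (adjusted p = 0.0923). The annotation places 1 long gene, 1700066N21Rik, on the opposite strand across Csn3, and that gene had 0 to 2 counts in every library.

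Csn1s1, the alpha-S1-casein gene (chromosome 5, 87666208 to 87682578, plus strand), was the steadiest casein among E-cadHI libraries. Its level was 3529, 2775, 3282 and 3719 normalized CPM in the E-cadHI libraries of mice 57, 58, 67 and 70 and 894, 2626, 2157 and 2243 in the E-cadLO libraries. The groups did not overlap, although the libraries of mouse 58 differed by only 1.06-fold. The log2 fold change was -0.75 ± 0.31 (SE, 95% interval -1.45 to -0.04, adjusted p = 0.341, edgeR). Its share of the casein counts was 15.2% to 19.7% in E-cadHI and 16% to 29.2% in E-cadLO libraries, highest in the E-cadLO library of mouse 57, where all 4 caseins were at their lowest level.

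Csn2 encodes beta-casein (chromosome 5, 87692624 to 87699630, minus strand) and varied more between the tumors. It measured 3194, 2006, 5893 and 2572 normalized CPM in E-cadHI and 355, 1724, 2589 and 1689 in E-cadLO cells of mice 57, 58, 67 and 70. It was lower in E-cadLO cells of each mouse, but the groups overlapped because the E-cadLO library of mouse 67 lay above the E-cadHI libraries of mice 58 and 70. The log2 fold change was -1.10 ± 0.55 (SE, 95% interval -2.33 to 0.12, adjusted p = 0.388, edgeR), and the within-mouse log2 ratio averaged -1.29 ± 1.31 (SD, n = 4).

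Csn1s2a, an alpha-S2-casein gene (chromosome 5, 87774567 to 87788797, plus strand), was far scarcer and varied most between the mice. It stood at 45.4, 16.4, 221 and 95.6 normalized CPM in E-cadHI and 1.86, 16.9, 105 and 54.7 in E-cadLO cells of mice 57, 58, 67 and 70. The E-cadHI libraries spanned a 13.5-fold range, against 1.34-fold for Csn1s1 and 1.77-fold for Csn3, and mouse 67 was highest in both populations. The log2 ratio was 0.04 in mouse 58 and -4.28 in mouse 57. The log2 fold change was -1.08 ± 1.02 (SE, adjusted p = 0.608, edgeR), and -1.38 ± 0.65 with the replicate block (adjusted p = 0.284, edgeR). It was -0.25 without the E-cadHI library of mouse 67, in a fit without the block that kept the E-cadLO library of that mouse.

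The proximal promoters of Csn1s1 and Csn2 are shown because, of the 10 genes, they are the ones whose RefSeq promoter entry (GRCm38.p6) held the letters TTCNNNGAA, the palindromic core that STAT5 and related factors recognize, within 250 bases before the start. The capitals mark the fixed letters of the match. Entries were matched for 9 of the 10 genes, all except Csn3, and 2 of these 9 held the letters, beside 7.02% of the 32851 promoter entries of that length. For Csn1s1 the 150 bases before the start are printed, and for Csn2 30 bases around the match, since a GENCODE transcript of Csn2 starts further upstream and runs through it.
Csn1s1 (chr5:87666058-87666207, plus strand): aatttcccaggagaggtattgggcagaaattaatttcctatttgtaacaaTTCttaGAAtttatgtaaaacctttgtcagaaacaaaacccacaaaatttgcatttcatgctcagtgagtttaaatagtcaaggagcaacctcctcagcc
Csn2 (chr5:87699499-87699528, minus strand): tcacgtagacTTCttgGAAttgaagggact
The match lies 100 to 92 bases before the start in Csn1s1 and 93 to 85 bases before it in Csn2. Csn1s1 and Csn2 are neighbours on opposite strands, and both were among the 6 genes lower in 4 of 4 mice. So were Wap, Lalba and Ltf, in whose windows these letters were not found. By the GENCODE positions, the windows of Lcn2 and Wfdc2 lay within the gene, and those of Ltf and Lalba overlapped it. A match is a description of letters and says nothing about binding in these cells.

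The caseins lie in 1 stretch of 266 kb on chromosome 5, and the genes between them were near silent. Csn1s2b, a further alpha-S2-casein gene that starts 142 kb from the start of Csn1s1, had 0 to 10 counts per library, Prr27 (159 kb) had 0 to 9, the pseudogene Gm7337 (184 kb) 0 to 2, and the small RNA gene Gm25066 (67.3 kb) 0 in all 8 libraries. Odam, which starts 219 kb from Csn1s1 and encodes a secreted protein of tooth-forming epithelium, had 2.58 to 4.74 normalized CPM in E-cadHI and 0.931 to 4.38 in E-cadLO libraries, with overlapping groups (log2 fold change -0.45, standard error 0.60, adjusted p = 0.722, edgeR). Thus 4 of the 9 annotated genes of the stretch accounted for nearly all of its counts in both populations, with Csn1s1 and Csn2 at the left end and Csn3 at the right end as the abundant ones.

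**Figure D3:**
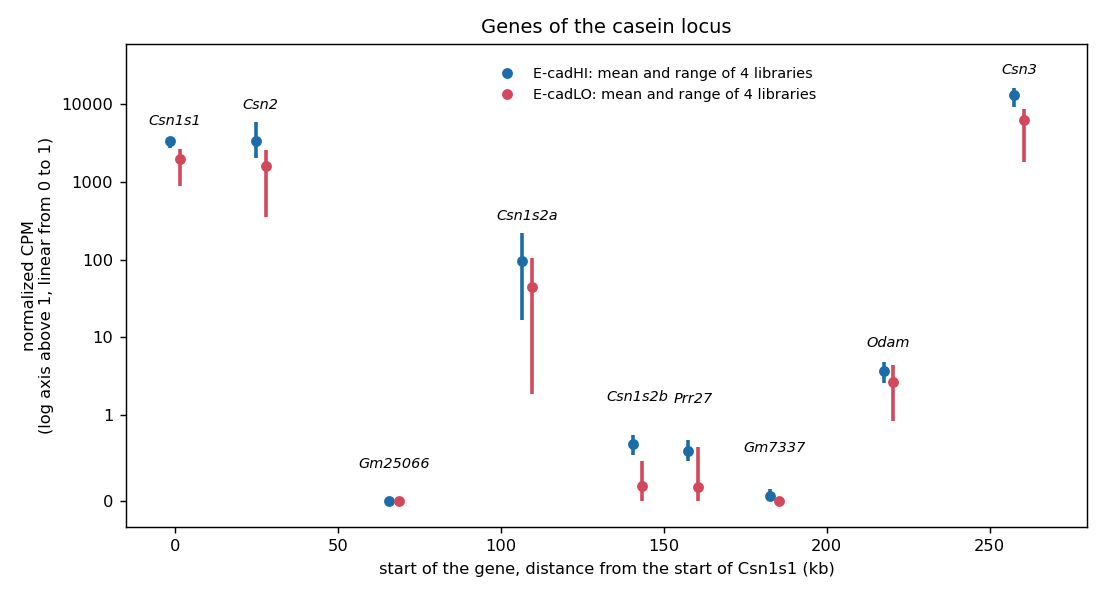
Normalized CPM (log axis above 1, linear from 0 to 1) of the 9 genes of the casein locus against the distance of their start from that of Csn1s1, as the mean and the range over 4 libraries per population. Csn1s1, Csn2 and Csn3 lie at 355 normalized CPM or above in every library, while Csn1s2b, Prr27, Gm7337 and Gm25066 stay below 1.

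Wap, the whey acidic protein of rodent milk (chromosome 11, 6635482 to 6638637, minus strand), had the smallest standard error of the 10 genes in edgeR without the block, though not with it (0.29, beside 0.28 for Mfge8). Its level was 51.1, 31, 32.2 and 37.3 normalized CPM in the E-cadHI libraries of mice 57, 58, 67 and 70, and 11.5, 22.9, 16.8 and 17.8 in the E-cadLO libraries. No libraries overlapped between the groups, and mouse 57 was again at both extremes. The mean was 37.9 ± 9.2 in E-cadHI and 17.3 ± 4.67 in E-cadLO cells. The log2 fold change was -1.14 ± 0.26 (SE, 95% interval -1.73 to -0.54, adjusted p = 0.252, edgeR). In DESeq2 without the block it was -1.12 ± 0.29 (adjusted p = 0.0104). The count behind it was modest, 155 to 733 reads per library.

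Lalba encodes alpha-lactalbumin, the subunit that turns the galactosyltransferase B4galt1 into lactose synthase (chromosome 15, 98480400 to 98482683, minus strand). It measured 474, 267, 604 and 450 normalized CPM in E-cadHI and 13.2, 141, 322 and 168 in E-cadLO cells of mice 57, 58, 67 and 70. Each mouse was lower in E-cadLO cells, by 34.8-fold in mouse 57 and by 1.88-fold to 2.68-fold in the other mice, and the groups overlapped because the E-cadLO library of mouse 67 lay above the E-cadHI library of mouse 58. The log2 fold change was -1.48 ± 0.70 (SE, 95% interval -3.05 to 0.09, adjusted p = 0.373, edgeR). Without mouse 57 it was -1.09, and with the mice as a replicate block in the 3 other mice it passed in edgeR, at an adjusted p of 0.00843, in a fit that called 0.173% of all genes lower. Its partner B4galt1 differed less, with 292 to 502 normalized CPM in E-cadHI and 228 to 399 in E-cadLO libraries (log2 fold change -0.48, standard error 0.24, adjusted p = 0.387, edgeR).

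Ltf, the gene of the iron-binding protein lactoferrin (chromosome 9, 111019271 to 111042767, plus strand), took more counts than any other of the 10 genes in the E-cadHI libraries of mice 57, 58 and 67. Its level was 19343, 12825, 17150 and 15524 normalized CPM in the E-cadHI libraries of mice 57, 58, 67 and 70 and 2625, 12592, 7471 and 7024 in the E-cadLO libraries. The groups did not overlap, but mouse 58 had almost the same level in both populations (1.02-fold), while mice 57, 67 and 70 differed 7.37-fold, 2.3-fold and 2.21-fold. The mean was 16211 ± 2746 in E-cadHI and 7428 ± 4078 in E-cadLO cells. The log2 fold change was -1.13 ± 0.42 (SE, adjusted p = 0.311, edgeR). In DESeq2 it was -1.28 ± 0.37 with the replicate block (adjusted p = 0.0104) and -1.11 ± 0.36 without it (adjusted p = 0.0652).

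Lcn2 encodes lipocalin 2, which binds the iron carriers of bacteria (chromosome 2, 32384633 to 32388252, minus strand). It stood at 2849, 2834, 2196 and 2669 normalized CPM in E-cadHI and 512, 3795, 1300 and 1349 in E-cadLO cells of mice 57, 58, 67 and 70. The E-cadHI libraries lay within a 1.3-fold range, and the E-cadLO libraries spanned 7.41-fold, from far below that range in mouse 57 to above it in mouse 58. Lower in 3 of 4 mice, it had a log2 fold change of -0.60 ± 0.50 (SE, 95% interval -1.72 to 0.52, adjusted p = 0.561, edgeR), which moved to -0.27 without mouse 57.

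Because neutrophil granules hold lactoferrin and lipocalin 2, neutrophil markers were read beside them. The 14 markers summed to 50.7 to 74.1 normalized CPM in E-cadHI and 34.5 to 58.1 in E-cadLO libraries, and 3 of the 14 passed the filter on low counts. Camp, Retnlg and Cebpe had at most 3 counts in every library, S100a9 was listed at 0 in 6 of the 8 libraries and reached at most 1.75 normalized CPM, and Ngp, Ly6g and Elane stayed below 1. The sum came mostly from Cd177 (29.7 to 49.3 in E-cadHI and 9.29 to 29.1 in E-cadLO) and S100a8 (15.2 to 23.7 and 6.54 to 14), both lower in E-cadLO cells in 4 of 4 mice and neither called (adjusted p = 0.32 and 0.282, edgeR). The third marker tested, Csf3r, was fitted higher (log2 fold change 2.09, adjusted p = 0.458, edgeR), with at most 2.02 normalized CPM in E-cadHI and 7.4 and 7.41 in the E-cadLO libraries of mice 67 and 70. Cxcr2 reached 2.38, Mmp8 2.21 and Mpo 2.23, each in an E-cadLO library. The E-cadLO library of mouse 57 also had Mmp9 at 19.8 normalized CPM, beside at most 1.26 in any other library. Ltf stood at 2625 normalized CPM in that library and higher in the others, and the part of neutrophils in the levels of Ltf and Lcn2 was not tested.

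Mfge8 encodes a secreted glycoprotein of the milk fat globule membrane that bridges cells to exposed phosphatidylserine, and macrophages and astrocytes make it too (chromosome 7, 79133768 to 79149060, minus strand). It measured 423, 362, 465 and 399 normalized CPM in E-cadHI and 429, 486, 206 and 246 in E-cadLO cells of mice 57, 58, 67 and 70. The E-cadHI libraries were close together, and the E-cadLO libraries lay on both sides of them, above the E-cadHI library of the same mouse in mice 57 and 58 and below it in mice 67 and 70. The log2 fold change was -0.27 ± 0.28 (SE, 95% interval -0.89 to 0.35, adjusted p = 0.636, edgeR). It was -0.01 without mouse 67, -0.10 without its E-cadLO library alone and -0.53 without mouse 58. Mouse 57, which differed most for the caseins, whey genes and Ltf, had a log2 ratio of 0.02 here.

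Wfdc2, a secreted protein of epithelia with the disulfide core fold that Wap also has (chromosome 2, 164562413 to 164568510, plus strand), was the scarcest of the 10 genes and the only member fitted higher in E-cadLO cells. It had 17 to 111 counts per library, that is 2.51, 4.07, 1.26 and 4.74 normalized CPM in E-cadHI and 3.57, 12.9, 2.83 and 3.84 in E-cadLO cells of mice 57, 58, 67 and 70. The groups overlapped, and the E-cadLO library of mouse 58 stood above the other 7. The log2 fold change was 0.87 ± 0.63 (SE, 95% interval -0.54 to 2.28, adjusted p = 0.515, edgeR), and 0.13 without that library.

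The size of the difference varied widely between the mice. In mouse 57 the log2 ratios of the caseins, Wap, Lalba, Ltf and Lcn2 ran from -5.12 (Lalba) to -1.98 (Csn1s1), and in mouse 58 from -0.92 (Lalba) to 0.42 (Lcn2). Mice 67 and 70 lay between, at -1.20 to -0.49 and -1.42 to -0.61. The median ratio of the 12 epithelial markers was also lowest in mouse 57 and highest in mouse 58, at -0.96, 0.39, -0.02 and -0.36 in mice 57, 58, 67 and 70, and that of all genes tested was 0.00 to 0.07. Taken relative to the epithelial median of the same mouse, a scaling chosen after the values were seen, 7 genes (the 4 caseins, Wap, Lalba and Ltf) were lower in E-cadLO cells in 4 of 4 mice, beside 3.97% of all genes tested. The scaling shifts every gene of a mouse alike, and it alone moved Csn1s2a in mouse 58 from 0.04 to -0.35. Wap was then the most even, at -1.14, -0.82, -0.89 and -0.69, and Lalba remained the farthest, at -4.16, -1.31, -0.88 and -1.06. Lcn2 was lower in 3 of 4 mice (0.03 in mouse 58), Mfge8 in 2 of 4, and Wfdc2 in none of the 4. The E-cadLO library of mouse 57, with the largest differences, is also the library with the fibroblast markers given above, and without mouse 57 the log2 fold changes in edgeR were -0.50 for Csn1s1, -0.83 for Csn2, -0.94 for Csn1s2a, -0.70 for Csn3, -0.83 for Wap, -1.09 for Lalba and -0.77 for Ltf.

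**Figure D4:**
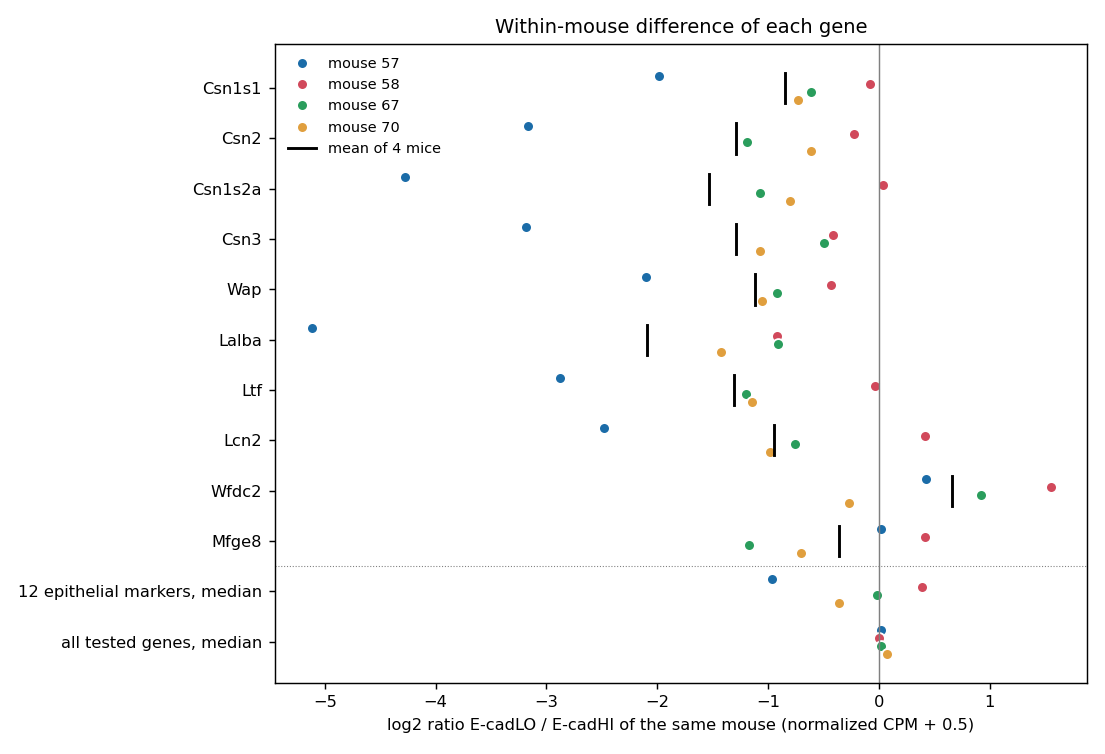
Log2 ratio of E-cadLO to E-cadHI normalized CPM within each mouse (points, shifted vertically to stay visible) and the mean of the 4 mice (black bars) for the 10 genes, with the median of 12 epithelial markers and of all genes tested below. The points of mouse 57 lie farthest left for the caseins, Wap, Lalba, Ltf and Lcn2, and those of mouse 58 lie nearest to or right of 0 for these genes except Lalba.

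Upstream of the milk genes, 14 genes of prolactin and STAT5 signalling and of the lactogenic transcription factors were all tested. In edgeR 10 were fitted lower in E-cadLO cells, beside 44.9% of all genes tested. The median log2 fold change of the 14 was -0.42 and edgeR called none. Beside 1.65% of all genes called lower and 7.57% called higher, DESeq2 with the replicate block called 4 of the 14 lower and none higher. These were Prlr, the prolactin receptor (log2 fold change in that fit -0.80, adjusted p = 0.0112), Stat5a, the main STAT of the lactating gland (-0.76, adjusted p = 0.0366), Elf5, the alveolar lineage factor (-1.27, adjusted p = 0.00371), and Gata3, the luminal factor (-0.64, adjusted p = 0.00267). Each was lower in 4 of 4 mice, beside 14.2% of all genes tested. For Prlr the libraries did not overlap, with 183 to 254 normalized CPM in E-cadHI and 72 to 167 in E-cadLO cells. Nor did they for Stat5a, with 54.8 to 61.6 and 23.2 to 53. All E-cadLO libraries also lay below all E-cadHI libraries for Id2, Tfap2c and Akt1, each lower in 4 of 4 mice. Such a gap was found for 4.2% of all genes tested. The groups overlapped for Elf5, at 36 to 72.8 and 8.25 to 48.7, and for Gata3, at 392 to 772 and 282 to 414. Akt1 was not called in any of the 4 fits. The genes fitted higher in edgeR were Nr3c1, Socs2 (log2 fold change 0.45, adjusted p = 0.521), Cish (0.42, adjusted p = 0.605) and Jak2 (0.06, adjusted p = 0.942). None of these was called in any of the 4 fits either. The transcriptional regulator Id2 (log2 fold change -0.75, adjusted p = 0.347, edgeR) and Tfap2c (-0.62, adjusted p = 0.296) were not called in any of the 4 fits, nor were the glucocorticoid receptor Nr3c1 (0.19, adjusted p = 0.566) and Nfib (-0.31, adjusted p = 0.635).

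The genes of milk fat and lactose synthesis and secretion did not share a direction. Of the 20 genes 19 were tested. In edgeR 12 were fitted lower, beside 44.9% of all genes tested, and 7 higher. The median log2 fold change was -0.14, and none was called by edgeR. DESeq2 with the replicate block called 3 lower, namely Xdh, the xanthine dehydrogenase of the fat globule coat (-1.03, adjusted p = 0.0176), the membrane mucin Muc15 (-1.14, adjusted p = 0.045) and the folate receptor Folr1 (-1.17, adjusted p = 0.0259), and 2 higher, namely Atp2b2, the calcium pump that loads milk (1.69, adjusted p = 3.6e-05), and Pthlh, the parathyroid hormone-related protein (2.46, adjusted p = 3.0e-04). The fit with the block called 1.65% of all genes lower and 7.57% higher. DESeq2 without the block also called Pthlh higher (adjusted p = 0.0164), where 2.19% of all genes were called higher. Atp2b2 rested on 1.81 to 10 normalized CPM in E-cadHI and 5.28 to 31 in E-cadLO libraries, and neurons make it as well. Pthlh had 0.527 to 1.67 and 2.44 to 15. The abundant lipid droplet coat gene Plin2 had 906 to 1271 normalized CPM in E-cadHI and 972 to 1799 in E-cadLO libraries (log2 fold change 0.14, standard error 0.23, adjusted p = 0.784, edgeR). Fasn, the fatty acid synthase (-0.28, standard error 0.25, adjusted p = 0.589), and the glucose transporter Slc2a1 (0.51, standard error 0.28, adjusted p = 0.428) were not called in any of the 4 fits either.

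Other whey, antimicrobial and secreted proteins of mammary epithelium lay closer to the 10 genes. Of these 12 genes 10 were tested. In edgeR 8 were fitted lower, beside 44.9% of all genes tested, and 2 higher. The median log2 fold change was -0.67, and none was called by edgeR. DESeq2 called Wfdc18, a relative of Wap, lower without the block (adjusted p = 0.0373) and with it (adjusted p = 0.00735), and its level was 1197 to 2565 normalized CPM in E-cadHI and 175 to 1054 in E-cadLO libraries. With the block it also called Trf, transferrin, lower (log2 fold change -1.06, adjusted p = 0.0136) and Saa3, an acute-phase serum amyloid, higher (2.20, adjusted p = 0.00164). Of all genes, DESeq2 called 0.449% lower without the block, and 1.65% lower and 7.57% higher with it. Trf stood at 345 to 621 and 107 to 353 normalized CPM, and oligodendrocytes also make it. Of the 6 oligodendrocyte markers 5 were fitted higher in E-cadLO cells and Cnp was not (log2 fold change -0.08), and their part in the level of Trf was not tested. Saa3 rested on 0.538 to 4.39 and 3.26 to 13.7. Chil1 (log2 fold change -1.16, standard error 0.48, adjusted p = 0.335, edgeR), the antibody carrier Pigr (-0.88, standard error 0.34, adjusted p = 0.321), Clu (-0.61, standard error 0.39, adjusted p = 0.475) and the protease inhibitor Slpi (-0.10, standard error 0.23, adjusted p = 0.837) were not called in any of the 4 fits.

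**Figure D5:**
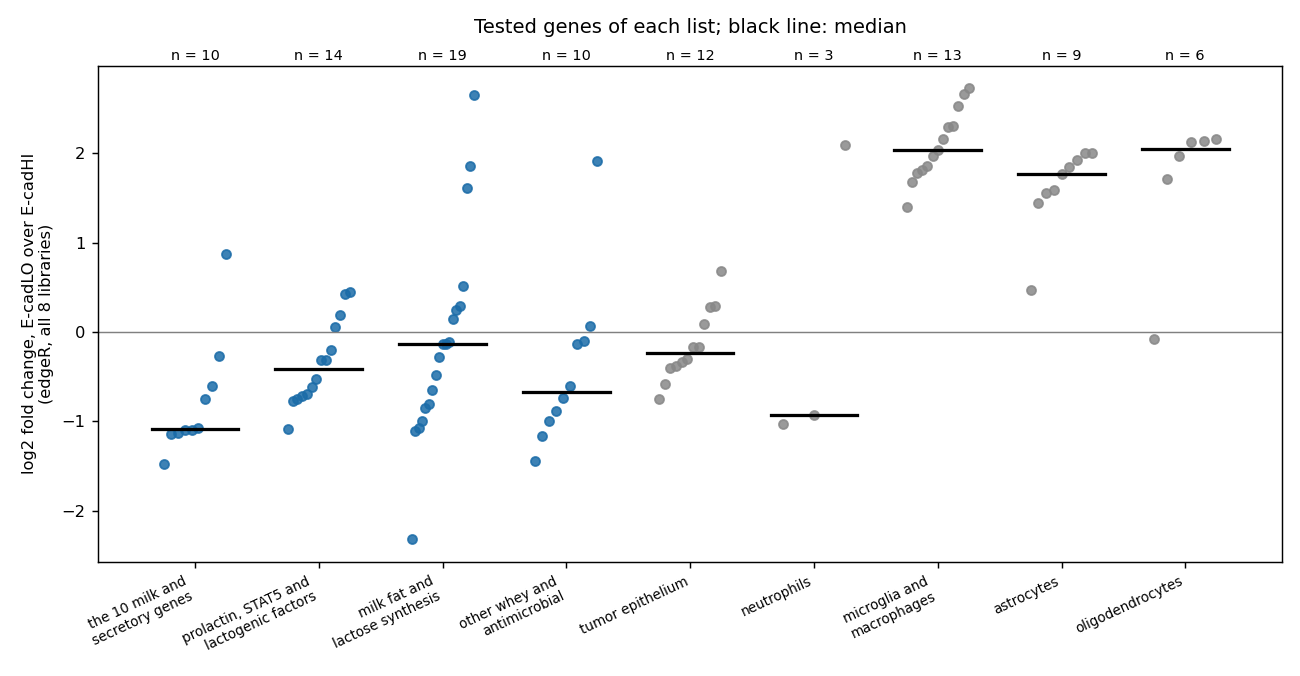
Log2 fold change of each tested gene, E-cadLO over E-cadHI, in edgeR over the 8 libraries, by list, with the median as a black line. The 10 milk and secretory genes have a median of -1.09, the other whey genes -0.67, the prolactin and STAT5 genes -0.42, the milk fat and lactose genes -0.14 and the epithelial markers -0.24, while most microglial, astrocyte and oligodendrocyte markers lie above 0.

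Over the 8 libraries the caseins, Wap, Lalba and Ltf followed each other more closely than Wfdc2 and Mfge8 followed any of them, for which no r with another member was above 0.39. Pearson's r of log2 levels was 0.98 between Csn1s1 and Csn3, 0.97 between Csn2 and Lalba, 0.97 between Csn1s1 and Ltf and 0.92 between Ltf and Lcn2, and lowest among the caseins, Wap, Lalba and Ltf for the pair Csn1s2a and Wap (0.51). With Csn3 it was -0.20 for Wfdc2 and -0.02 for Mfge8. These values are a description over 8 points that share 4 mice, 2 populations and the depth of each library. The E-cadLO library of mouse 57 was the lowest of the 8 for the caseins, Wap, Lalba, Ltf and Lcn2. Its part in these values was not tested. Of all 13598 genes tested, those most like Csn3 were Acp5 (r = 0.995), Gstt1 (0.991) and Wfdc18 (0.989). For Ltf they were Lbp (0.993), Lgals3bp (0.991) and 2610528J11Rik (0.988), and for Lcn2 they were Eef1a1 (0.992), Cblc (0.987) and Slc25a45 (0.985). Wfdc2 was most like 1700052K11Rik (0.939), Plxnb1 (0.932) and Pygo2 (0.931), and Mfge8 was most like Extl1 (0.965), S100a11 (0.948) and Ldlrad4 (0.922), at lower values than the nearest genes of the abundant milk genes.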

How the data were processed

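Per the study's methods, the authors made TruSeq mRNA libraries, read them as single reads, mapped them with Hisat 2.1.0 and counted them per gene with Icount on GRCm38. The submitters' processing notes name HISAT2 2.1.0 and HTSeq. How strand and reads of several genes were treated is not given in the sources used here. The authors deposited raw counts, without normalization. The 365 entries without a gene held 0.0636% to 0.0954% of the counts and were left out. The 10 genes, the gene lists and the tests were chosen with earlier results of these data known.

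The 8 libraries were compared in edgeR 4.0.16 (R 4.3.3), with TMM normalization, filterByExpr by population and its quasi-likelihood test. P-values were adjusted over the 13598 genes left by the method of Benjamini and Hochberg, with a threshold of 0.05. Standard errors are the log2 fold change divided by the square root of F, and intervals use the t quantile of the fit. DESeq2 1.42.0 and fits with the mouse as a replicate block were alternatives, as were DESeq2's size factors, 2 other filters, and leaving out each mouse and each library. Normalized CPM are the counts scaled to a common library size after TMM. Within-mouse ratios used normalized CPM plus 0.5, or plus 2 as an alternative. Floors of 3 counts cover counting error only.

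The pairing comes from the mouse number in the labels. Same-mouse libraries deviated together from their group means (correlation 0.275 to 0.698 in 4 pairs, at most 0.153 in the 12 other pairs). No libraries were as alike as sampling noise allows (chi-square per degree of freedom at least 27.9).

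Positions are those of the table, and 31719 of 31894 genes were found in GENCODE M21 (GRCm38), which gave transcript lengths. Named genes are the 10 members, up to 6 of the highest mean level plus any gene called in a fit per pathway list, up to 3 per marker list, and the 3 genes of highest correlation with Csn3, Ltf, Lcn2, Wfdc2 and Mfge8. Cdh1, Akt1, Socs2, Cish, Jak2 and markers beyond the first 3 of a list were added after their values were seen, as was the epithelial scaling. The steps were tested on simulated data. Tables and figures were made with Python 3.11, pandas 2.3 and matplotlib 3.10.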

Additional observations from a re-analysis of the deposited data

Results flagged for a closer look

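In groups of 4 values, a value was singled out where its gap to the nearest other value exceeded Dixon's 95% limit. Of 30 groups tested 2 had such a value, and chance alone would give about 1 in 20, or 1.5. The within-mouse log2 ratio of Lalba in mouse 57 was -5.12, far from those of the other mice (-1.42 to -0.91). The level of Wfdc2 in the E-cadLO library of mouse 58 was 12.9 normalized CPM, far above the other E-cadLO libraries (2.83 to 3.84).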

How the results depend on the processing

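All 10 log2 fold changes kept their sign under each of the 26 alternative fits, with the widest ranges for Csn1s2a (-1.99 to -0.25), Lalba (-2.32 to -1.08), Lcn2 (-1.38 to -0.27) and Wfdc2 (0.13 to 1.29). All 30 within-mouse means kept their sign with a pseudocount of 2, without TMM and relative to the epithelial median. The counts of called genes did depend on the tool and on the pairing, for causes that were not tested. Genes called higher in E-cadLO cells were 0 as reported, 298 with DESeq2, 1030 with DESeq2 and the replicate block, 99 with edgeR and the replicate block, 23 without a filter on low counts, 3 with at least 10 counts in every library, and 0 to 13 when a mouse or library was left out, with 13 without the E-cadLO library of mouse 70. Genes called lower were 0 as reported, 61 with DESeq2 and 225 with DESeq2 and the replicate block. Of the 10 genes 0 were called in edgeR, 1 with DESeq2 and 3 with DESeq2 and the replicate block. In further fits with the replicate block, added once the values were known, edgeR called 1 lower without mouse 57 (Lalba, beside 0.173% of all genes), and DESeq2 called 5 without mouse 57 (beside 0.834%), 6 without mouse 58 (2.06%), 1 without mouse 67 (0.212%) and 1 without mouse 70 (0.773%). Mouse 57 gave the largest differences for all genes except Wfdc2 and Mfge8, and 4 pairs limit what any of these tests can call. Wfdc2 had 17 to 111 counts per library, and its lowest value, 0.13, came from leaving out the E-cadLO library of mouse 58.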
